A study of Homo sapiens with 4 samples.

Results

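The replication-dependent histone genes encode the bulk histones that package newly copied DNA. Their members were taken from the deposited table by symbol, as rows named HIST followed by the cluster number and the class (H1, H2A, H2B, H3 or H4), which gave 73 of the 26830 gene rows. There were 6 H1, 18 H2A, 20 H2B, 14 H3 and 15 H4 rows. The RNA came from U2OS, a human osteosarcoma cell line, in which a lentivirus had been used to express QKI7 with a 3 x Flag tag; QKI7 is 1 of the protein forms made from QKI, whose product binds RNA. Cells positive for GFP were used. After ultraviolet cross-linking, lysis and sonication, RNA was recovered with a Flag antibody (Flag-RIP, n = 2 libraries). Input RNA, taken with no antibody (n = 2 libraries), was the comparison, so that transcripts bound by QKI7 could be found. Both groups came from cells that carried the tagged protein and had no further treatment, and a precipitation from cells without the tag was not analysed here. The libraries were described as rRNA-depleted and were made with a stranded mRNA kit.

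Core histones H2A, H2B, H3 and H4 form the octamer around which DNA is wrapped, and H1 binds the DNA between octamers. Replication-dependent histone mRNAs are made in S phase, mostly lack introns, and end in a conserved stem-loop in place of a poly(A) tail. The stem-loop is bound by SLBP, and the mRNAs are cut after it with the help of the U7 snRNP. Some members, several of H2B among them, are also known to give longer, polyadenylated transcripts. QKI is a STAR-domain protein that binds the sequence ACUAAC and related half-sites in RNA.

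Most members lie in compact clusters, and many H2A and H2B genes stand head to head and share a short promoter. Of the 47 members tested below, 42 have a window in the RefSeq promoter table (GRCh38.p14), from 250 bases before the gene start to 50 after it. The sequence TATAAA was found on the gene's strand in 27 of these 42 windows (64.3%), against 7.71% of all 27305 windows, and 26 of its 30 matches began 20 to 40 bases before the gene start. The sequence CCAAT, read on either strand, was found in all 12 H2A, 11 H2B, 6 H3 and 3 H1 windows, but in 1 of 10 H4 windows, against 35.7% of all windows. ATTTGCA, part of the octamer element known from H2B promoters, was found on the gene's strand in 8 of 11 H2B windows and in 0 of 12 H2A windows. On either strand it was in 8 of the 12 H2A windows, and in 4.23% of all windows. TATAAA on either strand was in 71.4% of the members' windows and 12% of all windows.

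Windows of 4 members are shown as examples, chosen by their deposited values. The first holds the promoter shared by HIST1H2AC and HIST1H2BC, a pair that was higher in Flag-RIP as deposited, and the second that of HIST1H2AG and HIST1H2BJ, a pair whose values were lower. The others belong to the H4 genes HIST1H4H and HIST1H4K. Their deposited changes had opposite signs, and both were below the median change of all tested genes. Capitals mark TATAAA and the CCAAT box, each read on either strand; matches on the 2 strands overlap at 1 place in the HIST1H2AG window. HIST1H2AC lies at chr6:26123922-26124221 on the plus strand, HIST1H2AG at chr6:27132793-27133092 on the plus strand, HIST1H4H at chr6:26285485-26285784 on the minus strand and HIST1H4K at chr6:27831511-27831810 on the minus strand, as windows in GRCh38.p14.
HIST1H2AC: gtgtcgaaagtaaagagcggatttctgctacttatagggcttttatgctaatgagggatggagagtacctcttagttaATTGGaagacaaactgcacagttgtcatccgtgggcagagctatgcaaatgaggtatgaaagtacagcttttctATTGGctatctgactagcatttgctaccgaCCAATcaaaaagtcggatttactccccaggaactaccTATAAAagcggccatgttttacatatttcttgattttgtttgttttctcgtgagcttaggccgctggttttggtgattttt
HIST1H2AG: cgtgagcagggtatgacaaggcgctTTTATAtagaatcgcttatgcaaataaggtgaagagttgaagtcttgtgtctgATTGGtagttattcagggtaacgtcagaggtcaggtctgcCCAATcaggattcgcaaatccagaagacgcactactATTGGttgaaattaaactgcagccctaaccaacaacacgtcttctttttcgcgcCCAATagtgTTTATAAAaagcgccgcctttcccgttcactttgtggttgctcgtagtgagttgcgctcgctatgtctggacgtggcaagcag
HIST1H4H: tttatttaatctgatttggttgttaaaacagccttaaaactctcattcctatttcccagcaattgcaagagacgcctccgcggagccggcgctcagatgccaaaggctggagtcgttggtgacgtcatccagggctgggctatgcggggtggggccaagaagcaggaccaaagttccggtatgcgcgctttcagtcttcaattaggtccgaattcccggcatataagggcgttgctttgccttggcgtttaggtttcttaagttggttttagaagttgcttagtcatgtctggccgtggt
HIST1H4K: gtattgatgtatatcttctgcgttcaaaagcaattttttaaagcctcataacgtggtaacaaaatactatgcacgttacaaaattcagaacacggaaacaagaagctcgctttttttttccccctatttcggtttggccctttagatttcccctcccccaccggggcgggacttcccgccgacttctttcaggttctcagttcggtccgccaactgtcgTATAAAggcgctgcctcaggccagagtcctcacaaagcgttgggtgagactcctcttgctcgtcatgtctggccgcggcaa
Both genes of a pair start within each H2A window. The HIST1H2AG window holds TATAAA and CCAAT on both strands, and the HIST1H2AC window holds CCAAT on both strands but TATAAA only on the strand of HIST1H2AC. The HIST1H4H window holds none of them. These matches describe the DNA and say nothing of what protein bound the RNA. Whether promoter sequence went with the change was not tested.

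Values are TPM, a length-normalised share of each library that keeps no read depth, so no counting interval can be given. The 4 libraries differed in composition. 7SL RNA took 39.8% and 43.4% of the TPM in the Flag-RIP libraries, against 84.6% and 79.7% in the inputs, and ERCC spike-in rows took 18.9% and 25.6% against 2.78% and 3.89%, and their part in the histone values was not tested. The median tested gene had 5.72 and 5.37 TPM in Flag-RIP and 1.29 and 2.01 TPM in input, a plain ratio whose median over genes was 3.32. Differences were therefore computed on 2 scales, as deposited and after each library was shifted to a common median (centred), and each is named by its scale. The mesenchymal genes VIM, COL1A1, SPARC, LMNA, CD44 and RUNX2 passed the filter, whereas COL1A2 reached at most 0.34 TPM. The epithelial genes EPCAM, CDH1 and KRT19, the blood genes PTPRC and CD3E, and CDKN2A and TERT, which are off or low in U2OS, were all under 1 TPM in every library.

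Of the 73 members, 47 had a mean of at least 1 TPM and were tested. The other 26 had means of at most 0.953 TPM, and 7 of them are listed at 0 in all 4 libraries. They included 3 of 6 H1 genes (HIST1H1B, HIST1H1D and the testis gene HIST1H1T), 5 of 18 H2A, 7 of 20 H2B, 8 of 14 H3 and 3 of 15 H4 rows. Their highest value in any library was 1.79 TPM, for HIST1H2BE in Flag-RIP. The levels of the members thus fell into detected genes, most of them well above the filter, and genes with next to none. The calls below cover only the first group, and the untested members had very low values. Among them, both Flag-RIP values lay above both inputs for HIST1H1B, HIST1H1T, HIST1H2AM, HIST1H2BE, HIST1H3E, HIST2H3D, HIST3H2BB and HIST3H3. They lay below both inputs for HIST1H2AL, HIST1H2BO and HIST1H3C, and overlapped for the others. HIST1H2BE had 1.79 and 1.49 TPM in Flag-RIP, against 0.25 and 0.28 TPM in input. HIST1H3E had 1.14 and 1.49 against 0.28 and 0.24 TPM, and HIST1H3C 0.08 and 0.08 against 0.23 and 0.34 TPM. In these bulk libraries, the share of cells in S phase and the histone RNA per cell cannot be told apart in a member's level. Neither was measured. HIST2H2AA3 and HIST2H2AA4, HIST2H3A and HIST2H3C, and HIST2H4A and HIST2H4B had identical values within each pair in every library. Histone genes of a class resemble each other in sequence, and how reads were divided among them was not examined here, so values of single members are uncertain to that extent.

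Summed over all members, histone genes took almost the same share of every library. The sum was 3871 and 3787 TPM in the Flag-RIP libraries, against 4317 and 3686 TPM in the inputs, so that the groups overlapped. H1 genes, which encode the linker histones, summed to 677 ± 32.2 TPM in Flag-RIP and 677 ± 43.5 TPM in input (SD, n = 2 each). H3 genes summed to 499.7 ± 15.6 and 608 ± 64.7 TPM, and H4 genes to 733 ± 21.1 and 870.1 ± 125 TPM, in Flag-RIP and input. Neither sum differed as deposited by limma (adjusted p = 0.245 and 0.279). H2A genes summed to 963 ± 89.2 TPM in Flag-RIP and 1318 ± 143 TPM in input, a log2 change of -0.45 (SE 0.20, limma adjusted p = 0.028). H2B genes moved the other way, with 957 ± 144 TPM in Flag-RIP and 529 ± 70.1 TPM in input, a log2 change of 0.85 (SE 0.22, limma adjusted p = 2.2e-04).

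H2B was the class whose place among the histones changed most. It made up 27.3% and 22.6% of the histone TPM in the Flag-RIP libraries and 13.4% and 13.0% in the inputs. H2A took 23.2% and 27.1% in Flag-RIP and 32.9% and 33% in input. The shares of H1 and H3 lay between 12.9% and 18.5% in all libraries, and that of H4 between 19.0% and 22.2%. A single gene, HIST1H2BC, held 60.5% and 51.8% of the H2B sum in Flag-RIP and 17.7% and 16.8% in input. Without it the H2B sum was 418 and 412 TPM in Flag-RIP, against 476 and 399 TPM in input, and the groups overlapped.

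**Figure D1:**
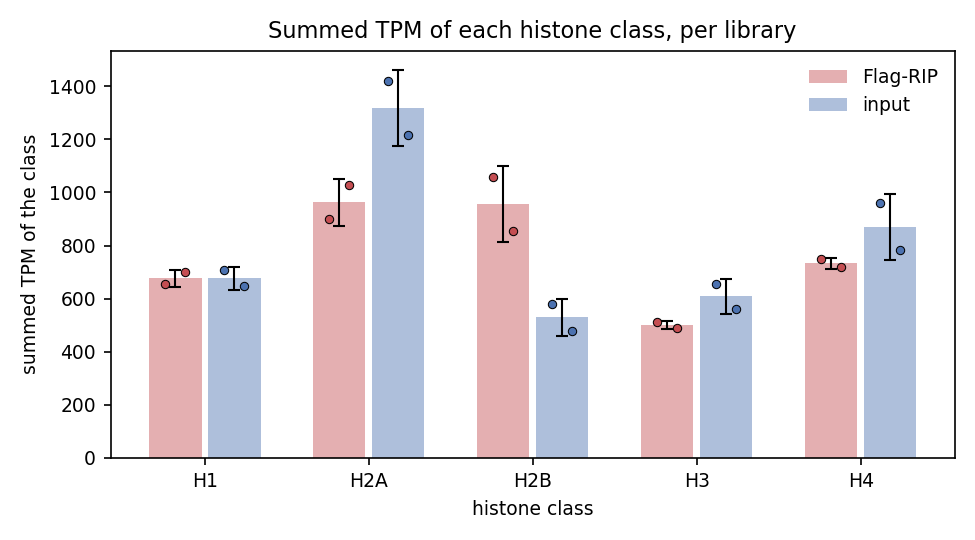
Summed TPM of each class in Flag-RIP (red, left of each pair) and input (blue, right), with bars for the mean of 2 libraries, error bars for 1 SD and points for single libraries. H2B lies higher in Flag-RIP, at 957 against 529 TPM, and H2A lower, at 963 against 1318 TPM.

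Against the median gene the class sums were low in Flag-RIP. On the centred scale the log2 change was -1.32 for H1 (SE 0.25, limma adjusted p = 0.0062), -1.77 for H2A (SE 0.27, limma adjusted p = 0.0030), -1.60 for H3 (SE 0.26, limma adjusted p = 0.0035) and -1.56 for H4 (SE 0.27, limma adjusted p = 0.0046). The H2B sum, at -0.47 with an SE of 0.28, missed the threshold (adjusted p = 0.206), and without HIST1H2BC it had -1.39 (adjusted p = 0.0058). How reads were divided among the members was not examined, and the H2B sum without HIST1H2BC rests on that division. The H1 call was lost without input replicate 1 (centred -1.05, limma adjusted p = 0.059), and the deposited calls of the H2A sum were lost without input replicate 1, Flag-RIP replicate 1 or Flag-RIP replicate 2 (-0.34, -0.36 and -0.55). The deposited rise of the H2B sum was lost without Flag-RIP replicate 1 (0.70, limma adjusted p = 0.054).

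Counted gene by gene, 6 of the 47 tested members were higher as deposited and 12 were lower (limma, adjusted p under 0.05). Members with identical values in every library are each counted here. Over all 10415 tested genes 92.3% were called higher and 0.317% lower on this scale, so the share of lower calls among histone genes, and of calls not made (29 of 47), stood far from the background. On the centred scale 2 members were higher and 41 lower, against 16.4% and 24.4% of all tested genes. The median change was -0.28 as deposited and -1.60 centred, against 1.205 and -0.11 over all tested genes. The filter used the mean over all 4 libraries, so background genes could pass through Flag-RIP alone and then were higher by selection. Genes at 1 TPM or more numbered 11970 and 12098 in the Flag-RIP libraries, against 6117 and 7803 in the inputs. The library medians used for centring were taken over the same tested genes. Both Flag-RIP values lay below both inputs for 26 members and above them for 10 as deposited, where the background was 0.845% and 96.7%, and for 44 and 2 after centring, where it was 47.3% and 29.4%. The split of deposited calls depended on scaling, with 2 higher and 43 lower when library totals were taken without the 20 top rows, 1 and 37 after quantile normalization, and 0 and 45 with libraries scaled to the spike-ins. It also depended on single libraries, with 21 lower calls without input replicate 2, 2 without Flag-RIP replicate 1 and 4 without Flag-RIP replicate 2, and with 2 higher calls without either Flag-RIP library.

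**Figure D2:**
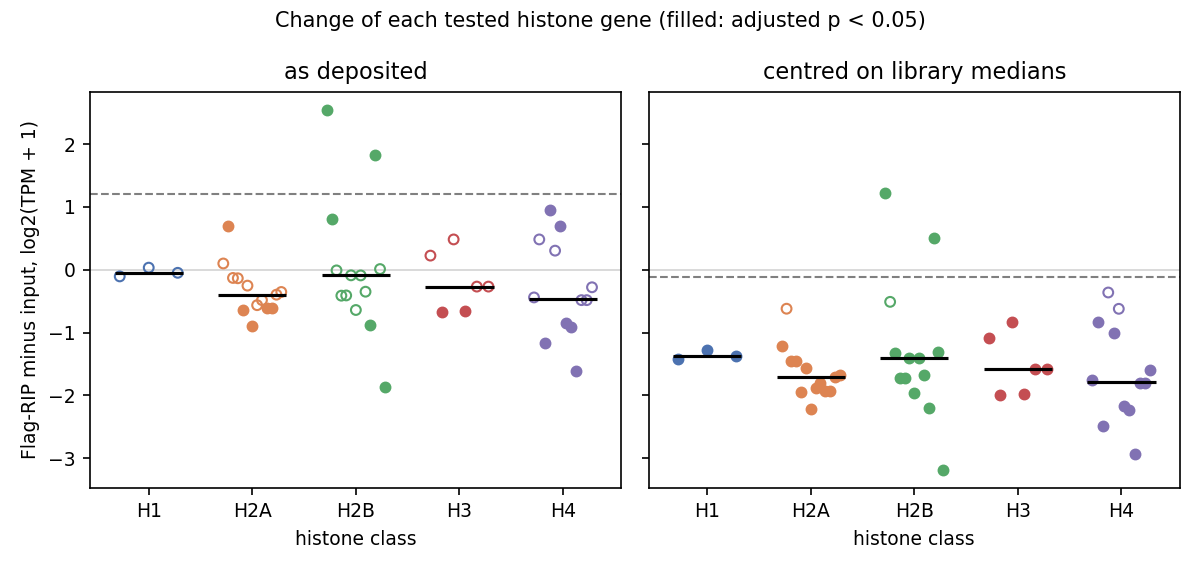
Log2 change (Flag-RIP minus input, log2(TPM + 1)) of each of the 47 tested members by class, as deposited on the left and centred on the right; filled points passed an adjusted p of 0.05, black lines are class medians and the dashed line is the median of all tested genes. Nearly all points lie below the dashed line on both scales, and HIST1H2BC and HIST2H2BC stand above it.

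The 3 tested linker histone genes kept level values as deposited. HIST1H1C, the most abundant member, had 401 and 448 TPM in Flag-RIP, against 436 and 393 TPM in input. HIST1H1E had 212 and 206 TPM in Flag-RIP, against 223 and 209.8 TPM in input, and HIST1H1A had 40.2 and 44.2 against 47.9 and 43.1 TPM. The groups overlapped for all 3, and none was called as deposited (limma adjusted p of 0.747 to 0.894). Centred, all 3 were called lower, between -1.42 and -1.28, where 24.4% of all tested genes were called lower.

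Of 13 tested H2A genes, 1 rose and 4 fell as deposited, against 92.3% and 0.317% of all tested genes. After centring 12 fell, where 24.4% of all tested genes did, with a median of -1.71. The identical rows HIST2H2AA3 and HIST2H2AA4 are both counted among the 4 and the 12. HIST1H2AG, the most abundant, had 172 and 220.2 TPM in Flag-RIP, against 332 and 275 TPM in input, a deposited change of -0.63 (SE 0.27, limma adjusted p = 0.020). HIST2H2AA3 and HIST2H2AA4 each had 120.2 and 144 TPM in Flag-RIP, against 211 and 191 TPM in input. HIST1H2AI fell most, with 52.7 and 76.9 TPM in Flag-RIP and 122 and 117 TPM in input (-0.90 as deposited, SE 0.30, limma adjusted p = 0.0037). In these genes every Flag-RIP value lay below both inputs. HIST1H2AC was the exception, with 66.3 and 87.0 TPM in Flag-RIP and 47.8 and 45.2 TPM in input (0.70 as deposited, SE 0.31, limma adjusted p = 0.029). It missed the threshold after centring, at -0.62 (adjusted p = 0.072), and its deposited change had the opposite sign with each of the 3 other scalings.

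H2B genes spread most widely. Of 13 tested rows, 3 rose and 2 fell as deposited, against 92.3% and 0.317% of all tested genes. After centring 2 rose and 10 fell, against 16.4% and 24.4%. HIST1H2BC had 641 and 443 TPM in Flag-RIP, against 102 and 80.3 TPM in input, a ratio of 5.93 where the median gene had 3.32. As deposited the log2 change came to 2.54 with an SE of 0.27 (adjusted p = 4.7e-19), and after centring to 1.22 with an SE of 0.30 (adjusted p = 0.015). The centred call was lost without input replicate 2 (0.85), and the deposited change became -0.19 with libraries scaled to the spike-ins. HIST2H2BC, a transcribed pseudogene now named H2BC20P, had 18.2 and 20.2 TPM in Flag-RIP and 3.45 and 6.31 TPM in input, or 0.51 after centring with an SE of 0.15 (adjusted p = 0.034). That call was lost without input replicate 1 (0.35) or input replicate 2 (0.67), and the deposited change of 1.82 became -0.66 with spike-in scaling. HIST1H2BD had 61.45 and 50.8 TPM in Flag-RIP, against 35.4 and 28.04 TPM in input, so that both Flag-RIP values were above both inputs, with 0.81 as deposited (SE 0.32, limma adjusted p = 0.014). After centring it had -0.51 and was not called (adjusted p = 0.134), and its deposited change was negative with each of the 3 other scalings.

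The other abundant H2B genes did not follow HIST1H2BC. HIST1H2BF had 77.9 and 77.2 TPM in Flag-RIP, against 86.7 and 70.35 TPM in input, and HIST1H2BK had 81.55 and 67.0 against 90.0 and 68.8 TPM. Both overlapped between the groups, with deposited changes of -0.01 and -0.09. HIST2H2BF had 0 and 1.13 TPM in Flag-RIP, against 5.85 and 3.13 TPM in input, and passed the filter only through its inputs. HIST2H2BA, now the pseudogene H2BP1, had a deposited change of -0.88 with an SE of 0.33 (adjusted p = 0.0087), and -2.19 after centring.

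Of 6 tested H3 genes, 2 fell and 0 rose as deposited, against 0.317% and 92.3% of all tested genes. After centring all 6 fell, where 24.4% of all tested genes did, with a median of -1.59. The identical rows HIST2H3A and HIST2H3C are both counted among the 6. HIST2H3A and HIST2H3C each had 135 and 139 TPM in Flag-RIP, against 175 and 156 TPM in input. HIST1H3B had 109 and 105 TPM in Flag-RIP, against 189 and 154 TPM in input, the lowest centred change of the class at -1.99 (SE 0.26, limma adjusted p = 0.0019), and -0.67 as deposited. HIST1H3D had 61.7 and 43.6 TPM in Flag-RIP and 41.1 and 33.03 TPM in input, and its deposited change of 0.48 did not pass (limma adjusted p = 0.139), while it was called lower after centring, at -0.84 (adjusted p = 0.037). The Flag-RIP values lay below both inputs for the first 3 and above both for HIST1H3D.

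H4 genes encode 1 protein, and the deposited changes of their transcripts nonetheless had both signs. Of 12 tested, 2 were higher and 4 lower, against 92.3% and 0.317% of all tested genes. Even the highest H4 change, 0.96, was below the median of all tested genes, 1.205. After centring, 10 fell, where 24.4% of all tested genes did, and the median was -1.78. The identical rows HIST2H4A and HIST2H4B are both counted among the 10. HIST1H4E had 148 and 149 TPM in Flag-RIP, against 125 and 115 TPM in input, and HIST1H4B had 176 and 130.2 against 118 and 99.2 TPM. Both had Flag-RIP values above both inputs, but neither passed as deposited (limma adjusted p = 0.303 and 0.104). HIST2H4A and HIST2H4B each had 79.6 and 92.0 TPM in Flag-RIP, against 131 and 110.3 TPM in input. HIST1H4K had 16.8 and 25.8 TPM in Flag-RIP, against 90.7 and 47.65 TPM in input, the lowest of the class at -1.61 as deposited (SE 0.32, limma adjusted p = 1.7e-06). Its 2 inputs lay far apart, and its centred call was lost with a robust variance fit (adjusted p = 0.054).

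Low H4 genes and mid-level ones were among those with a positive change. HIST1H4D had 4.95 and 5.18 TPM in Flag-RIP and 2.35 and 1.92 TPM in input (0.96 as deposited, SE 0.30, limma adjusted p = 0.0016). HIST1H4H had 75.95 and 59.15 TPM in Flag-RIP and 44.1 and 38.1 TPM in input (0.70 as deposited, SE 0.32, limma adjusted p = 0.031). HIST1H4C had 18.55 and 22.1 TPM in Flag-RIP and 50.1 and 43.8 TPM in input (-1.17 as deposited, SE 0.33, limma adjusted p = 4.5e-04). Both Flag-RIP values lay above both inputs for HIST1H4D and HIST1H4H, and below them for HIST1H4C. The signs of HIST1H4D and HIST1H4H turned negative with each of the 3 other scalings. After centring HIST1H4D had -0.36 and HIST1H4H -0.62, neither called, and HIST1H4C had -2.49.

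**Figure D3:**
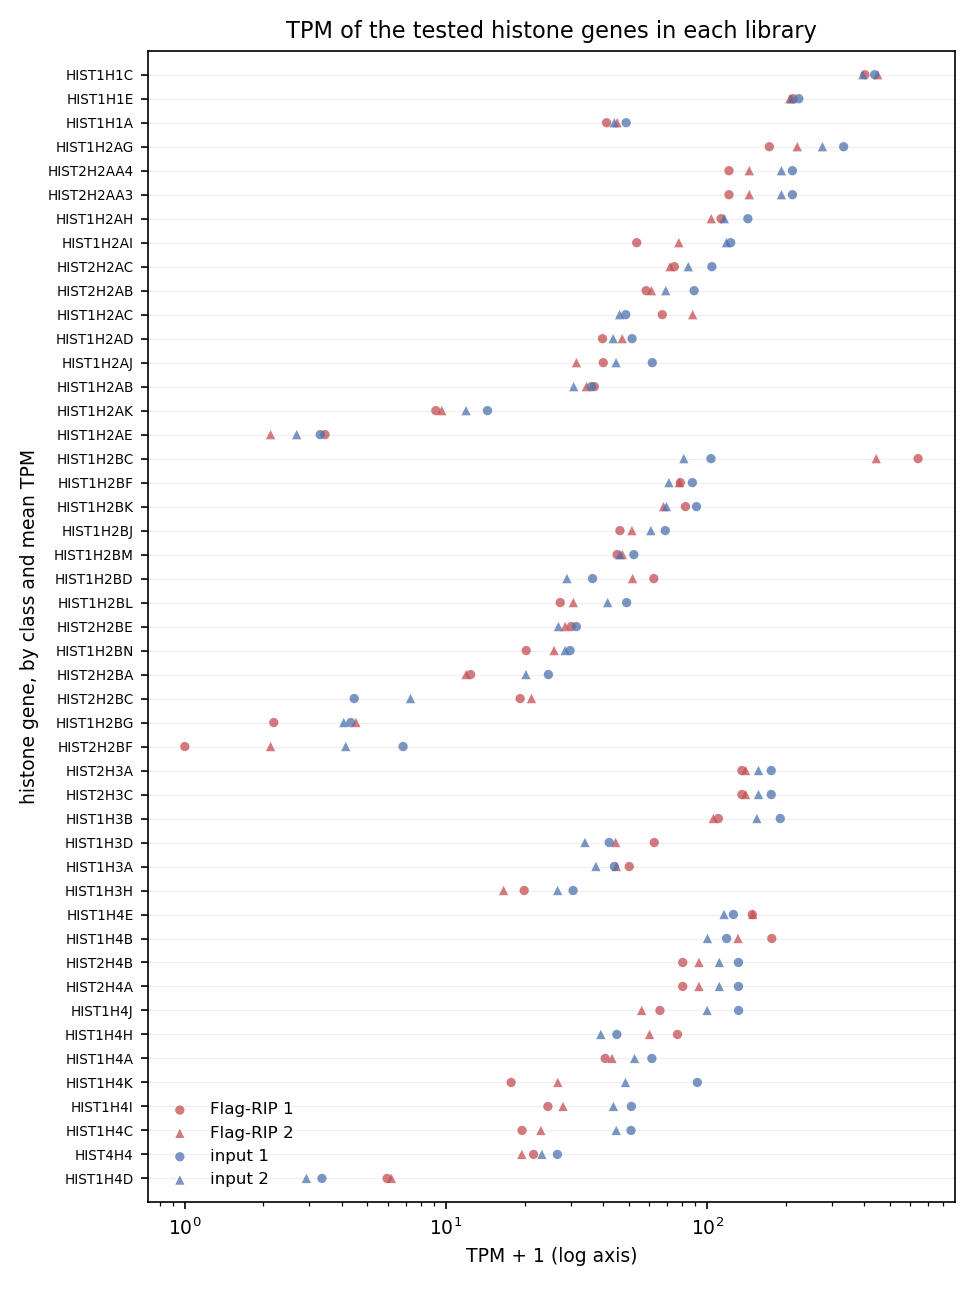
TPM + 1 on a log axis for the 47 tested members in Flag-RIP (red) and input (blue) libraries, with circles for replicate 1 and triangles for replicate 2, grouped by class and ordered by mean. HIST1H2BC stands apart at 641 and 443 TPM in Flag-RIP against 102 and 80.3 TPM in input, while most other red and blue points lie close together.

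The members' changes varied with their place in the genome. Members were placed in the same block where neighbours lay within 500000 bases, a grouping made after the values were seen and described here with no test. The HIST1 genes of chromosome 6 fall into 3 such blocks. In the first, from 25726063 to 26285534, 11 of 20 tested members had a deposited change above 0 and 9 below it. The median was 0.07, where that of all tested genes was 1.205. In the second, from 27132316 to 27147562, all 5 tested members were below 0, with a median of -0.41. In the third, from 27807479 to 27893891, all 9 were below 0, with a median of -0.64. The HIST2 genes of chromosome 1, from 149782689 to 149887965, had 9 of 11 below 0 and a median of -0.40. On chromosome 12 the only member, HIST4H4, had -0.28.

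The same order was seen within single classes. H2A genes had a median of -0.02 in the first HIST1 block (4 tested), -0.44 in the second (2) and -0.56 in the third (3). H4 genes had a median of 0.39 in the first block (6 tested), -0.85 in the second (1) and -1.27 in the third (2). H2B genes had 0.40 (4), -0.25 (2) and -0.35 (3). In summed TPM the first block had 2265 and 2044 in Flag-RIP, against 1745 and 1522 in input, and its H4 genes alone 463 and 407 against 399.5 and 349.8. The third block had 291 and 314 TPM in Flag-RIP, against 576 and 458 TPM in input. The groups did not overlap in these sums. Without HIST1H2BC the first block had 1624 and 1602 TPM in Flag-RIP, against 1643 and 1441 TPM in input, and the groups overlapped. Centred medians were all below 0 and kept the order, at -1.25, -1.73 and -1.96 for the 3 blocks.

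**Figure D4:**
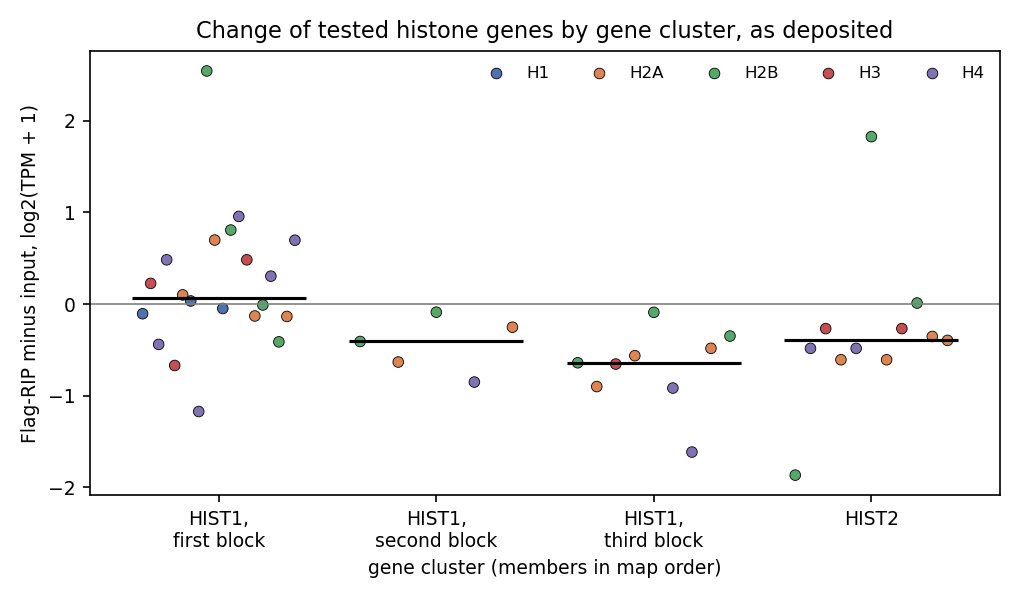
Deposited log2 change (Flag-RIP minus input, log2(TPM + 1)) of the tested members of the 3 HIST1 blocks and of HIST2, in map order within each and coloured by class, with black lines for the medians. Members of the first HIST1 block scatter around 0 with a median of 0.07, while the medians of the others lie at -0.41, -0.64 and -0.40.

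Head-to-head neighbours were set side by side, in a set where 34 of 47 tested members were below 0 as deposited. Of 8 tested H2A and H2B pairs on opposite strands, with gene ends 194 to 248 bases apart, both members were below 0 as deposited in 6 and both above 0 in 1. HIST1H2AC and HIST1H2BC, the pair above 0, had 0.70 and 2.54. HIST1H2AI and HIST1H2BL had -0.90 and -0.64, and HIST1H2AG and HIST1H2BJ had -0.63 and -0.41. HIST2H2AC and HIST2H2BE had -0.35 and 0.01. HIST2H2AA4 and HIST2H2BC, 288 bases apart but with the strand of HIST2H2BC not in the RefSeq table used, had -0.61 and 1.82. After centring both members were below 0 in 7 of the 8 pairs. The H2A gene had the lower change of the pair in 7 of 8, the exception being HIST1H2AE at -0.14 beside HIST1H2BG at -0.41. Pairs share a genome region, so this is no independent view beside the blocks.

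Gene span in the RefSeq table was also compared. Of the 73 members, 63 span at most 800 bases and 10 span more. Among those over 800 bases, 8 were tested, with 4 above 0 and 4 below as deposited and a median of -0.04. Among those up to 800 bases, 39 were tested, with 9 above 0 and 30 below and a median of -0.35. After centring the medians were -1.36 over 800 bases and -1.67 up to 800. As deposited, 2 members over 800 bases were called higher and 2 lower, against 4 and 10 of those up to 800. Over all tested genes 92.3% were called higher and 0.317% lower on this scale. Both deposited medians lay below the median of all tested genes, 1.205. HIST1H2BC spans 10757 bases and HIST1H2BD 13229, and both were higher as deposited. HIST2H2BA, at 10118 bases, was called lower, at -0.88. HIST2H2BF, at 29682 bases, had the lowest fitted change, but it passed the filter only through its inputs. HIST2H4B, at 16753 bases, had -0.48, and HIST1H3D, at 2510 bases, had 0.48, and neither was called. HIST1H2BK and HIST2H2BE, at 8566 and 2224 bases, had values that overlapped between the groups.

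Other protein-coding genes differed by span as well. Among tested genes outside the histone rows, the centred median was -0.98 for 9 genes of at most 800 bases, -0.54 for 67 genes over that and up to 1500 bases, -0.41 for 284 genes up to 3000 bases and -0.08 for 7161 genes over 10000 bases. The share called lower was 66.7%, 59.7%, 49.6% and 20% in these groups, beside 41 of 47 histone members. SF3B5, a splicing factor gene of 690 bases, had 10.4 and 13.5 TPM in Flag-RIP and 18.4 and 18.5 TPM in input. NPB, of 668 bases, had 5.09 and 8.08 against 1.34 and 2.24 TPM, so that not all short genes were low. Span is that of the gene, not of the sequenced transcript, and its part in the histone values was not tested.

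The 2 inputs differed in the histone genes in a direction unlike that of most genes. Of the 47 tested members, 46 had a higher TPM in input replicate 1 than in input replicate 2, the exception being HIST2H2BC, against 2.76% of all tested genes. In the Flag-RIP libraries 20 of 47 were higher in replicate 1, against 60.7% of all tested genes. The median tested histone gene stood 3.00 and 3.01 log2 units above the median gene in Flag-RIP, and 4.74 and 3.94 units above it in input. The Flag-RIP libraries thus lay close together, and the inputs farther apart. Among genes outside the histone rows, the share higher in input replicate 1 also varied with span, from 55.6% of genes up to 800 bases to 0.517% of those over 10000 bases. After centring, 34 rather than 41 members were called lower when input replicate 1 was left out.

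Replication-independent variants, most of which are made throughout the cell cycle from polyadenylated mRNAs, were near the background of all genes as deposited. Of 11 variants listed, 10 were tested, and 9 rose and 0 fell, with a median of 1.04, where 92.3% of all tested genes rose and the median was 1.205. After centring 1 rose and 4 fell, with a median of -0.28, against 16.4% and 24.4% of all tested genes and a median of -0.11. H1F0, the linker variant of resting cells, had 282 and 208 TPM in Flag-RIP, against 51.5 and 73.8 TPM in input, or 0.64 after centring with an SE of 0.21 (adjusted p = 0.043). H2AFX, whose phosphorylated form marks DNA breaks, had 0.32, and H3F3B, which encodes H3.3, had 0.14, and neither passed. The lowest were H2AFZ, which encodes H2A.Z, at -0.88 (SE 0.20, limma adjusted p = 0.012), H2AFJ at -0.77 and the macroH2A gene H2AFY2 at -0.65. H3F3A is listed at 0 in all 4 libraries.

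Within each library the replication-dependent genes summed to 6.56 and 7.78 times the variants in Flag-RIP, against 27.1 and 16.9 times in input. The groups did not overlap, and the ratio was 0.334-fold that of input (a log2 difference of -1.58). This ratio does not depend on how a library is scaled. With 2 libraries against 2, the exact permutation test cannot give a two-sided p below 0.333, which is the value it gave. Leaving out each library in turn gave differences of -1.92 to -1.24. H1F0 alone held 282 of 590 and 208 of 487 TPM of the variant sum in Flag-RIP. In input it held 51.5 of 159 and 73.8 of 218 TPM. The ratio without H1F0 was not computed.

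**Figure D5:**
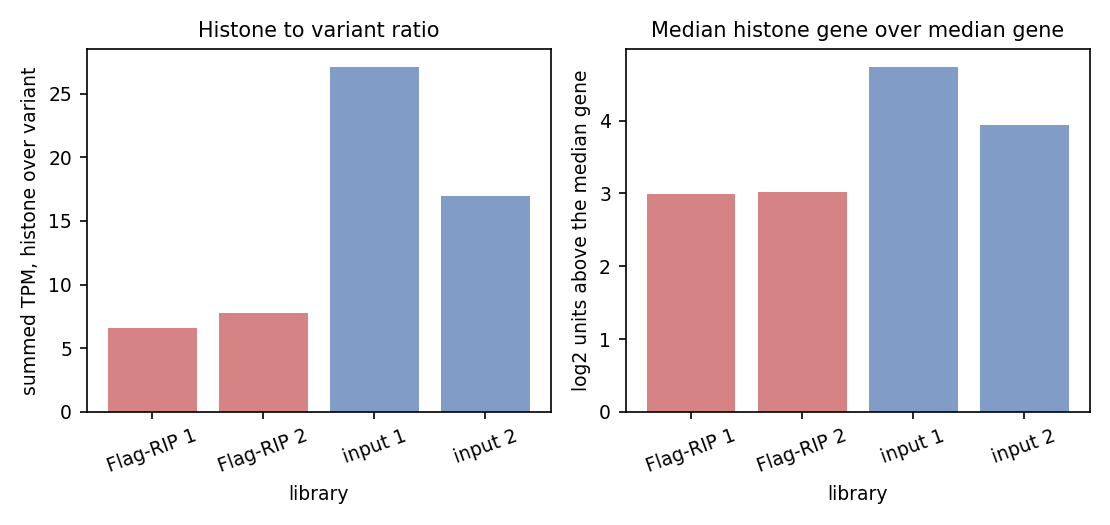
Left, summed TPM of replication-dependent over variant histone genes, and right, log2 distance of the median tested histone gene above the median tested gene, for the Flag-RIP libraries (red) and the inputs (blue). The ratios are 6.56 and 7.78 in Flag-RIP against 27.1 and 16.9 in input, and the 2 inputs lie farther apart than the 2 Flag-RIP libraries.

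Genes whose products make, translate or degrade histone mRNA were also examined. Of 21 factors listed, 17 were tested, and all 17 rose as deposited, as 92.3% of all genes did. After centring 2 rose, 5 fell and 10 were not called, with a median of -0.08, near the 16.4%, 24.4% and -0.11 of all tested genes. The highest was NCBP2, a subunit of the nuclear cap-binding complex, with 19.75 and 16.7 TPM in Flag-RIP and 1.56 and 2.73 TPM in input (1.31 centred, SE 0.12, limma adjusted p = 6.9e-04). ZCCHC11 (TUT4), a uridylyltransferase, rose by 0.44, and CTIF, a factor used in histone mRNA translation, had 0.36 and did not pass. The lowest were CPSF3, the endonuclease that cuts histone pre-mRNA, at -0.57, CSTF2 at -0.51 and LSM10, a U7 snRNP protein, at -0.48. SLBP itself had 3.61 and 3.47 TPM in Flag-RIP and 1.08 and 1.61 TPM in input, or -0.36 after centring with an SE of 0.10 (adjusted p = 0.026). The U7 RNA row RNU7-1 is listed at 0 in both Flag-RIP libraries and had 2.06 and 0.75 TPM in the inputs, below the filter.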

How the data were processed

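The authors deposited TPM values for 26830 genes and 92 ERCC rows in 4 libraries. The submitters' processing notes name the aligner STAR, the quantifier RSEM (1.2.31) and the build GRCh38; no source used here gives the annotation. TPM keeps no read depth, which is unknown.

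The test covered the 10415 genes whose TPM averaged 1 or more, spike-in rows left out, by limma (3.58.1, R 4.3.3) on log2(TPM + 1), Flag-RIP minus input, two-sided, with a mean-variance trend, Benjamini-Hochberg adjustment over all genes and a threshold of 0.05. This scale understates the change of low genes. There were 2 residual degrees of freedom. The prior degrees of freedom were infinite in the deposited fit and 5.72 in the centred fit. The deposited SEs and p-values thus come from the trend across genes, not from each gene's own spread between libraries. The centred fit first shifted each library to a common median. Class sums replaced a class's rows by their total and were fitted with all other genes. Older symbols were matched to the RefSeq table (73 of 73 members; for 5 whose symbol is a synonym of 2 genes, the gene not matched by another row was taken). The procedure was tested on simulated data, and the outcome is not given here.

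The members and lists were chosen with earlier results of these data known. Every member could be named; values per library are given, per class, for the 3 with the highest mean TPM and those with the lowest and highest centred change, and for others singled out after their values were seen. For the variant and factor lists the 3 lowest and 3 highest were named, with SLBP, RNU7-1 and H3F3A added. Labels number the replicates but name no separate cultures. The p-values therefore reflect the variation among these 4 libraries, which may be technical, and as deposited that variation is pooled over genes. Alternatives were pseudocounts, filters, scalings, variance fits, the replicate number as a block and leaving out each library.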

Additional observations from a re-analysis of the deposited data

How the results depend on the processing

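The centred counts of lower histone genes ranged from 34 to 44 when 1 library was left out, and all 41 of the genes called lower kept a negative change under each alternative in which they were tested. The size of the centred change moved with the pseudocount and the filter. The members' centred median was -1.60 in the main fit, -2.01 with a pseudocount of 0.1 and -0.93 with a pseudocount of 5. With no filter it was -0.85, over 66 members. The deposited directions rested on scaling, and the cause was not tested. With the 20 most abundant rows left out, 43 members were lower and 2 higher, and the class sums had -1.29 for H1, -0.44 for H2B, -1.57 for H3 and -1.53 for H4. Members whose deposited change was positive then had HIST1H1C -1.26, HIST1H2AB -1.19, HIST1H2AC -0.58, HIST1H2BD -0.47, HIST1H3A -1.06, HIST1H3D -0.80, HIST1H4B -0.81, HIST1H4D -0.039, HIST1H4E -0.99, HIST1H4H -0.58 and HIST2H2BE -1.28. After quantile normalization 37 were lower and 1 higher, the H2A sum had -0.91 and did not pass, the H3 sum had -0.88 and passed, and the members that turned had HIST1H2AB -1.06, HIST1H2AC -0.35, HIST1H2BD -0.29, HIST1H3A -0.86, HIST1H4D -0.38, HIST1H4H -0.37 and HIST2H2BE -1.18. Scaled to the spike-ins, 45 were lower and 0 higher, the class sums had -2.74 for H1, -1.89 for H2B, -3.02 for H3 and -2.98 for H4, and the members that turned had HIST1H1C -2.70, HIST1H2AB -2.58, HIST1H2AC -2.01, HIST1H2BC -0.19, HIST1H2BD -1.88, HIST1H3A -2.47, HIST1H3D -2.21, HIST1H4B -2.24, HIST1H4D -1.24, HIST1H4E -2.42, HIST1H4H -2.01, HIST2H2BC -0.66 and HIST2H2BE -2.66. With no filter 11 members were higher as deposited. The deposited change of the H2A sum did not pass with a pseudocount of 5 (-0.45, limma adjusted p = 0.097), with no filter (-0.45, limma adjusted p = 0.063) or with no variance trend (-0.45, limma adjusted p = 0.104). Leaving out 1 library gave 2 to 21 lower and 2 to 6 higher members as deposited, -0.56 to -0.34 for the H2A sum and 0.70 to 1.01 for the H2B sum.

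On the centred scale the count of higher members was 0 with a pseudocount of 0.1, 0 with the 20 most abundant rows left out, 0 when scaled to the spike-ins before centring, 1 after quantile normalization, and 0 to 2 when 1 library was left out. HIST1H2BC had 0.83, 0.79 and 0.59 in the first 3 of these. The H1 sum did not pass with a pseudocount of 5 (-0.67) or after quantile normalization (-0.46), and ranged from -1.58 to -1.05 when 1 library was left out. Quantile normalization also left the H2A sum at -0.91 and the H4 sum at -0.77 without passing, and turned the H2B sum to 0.54. The H2B sum passed when scaled to the spike-ins (-1.11) and without HIST1H2BC (-1.39). Same-numbered Flag-RIP and input libraries deviated from their group means with a correlation of -0.067 over genes, so the numbers were not taken to pair them. With the replicate block, 3 rather than 6 members were higher as deposited, and the 41 lower members after centring were called lower again. Read depth is unknown, so the precision of low members cannot be given.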
